A study of Mus musculus with 12 samples.

Results

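The genes of cholesterol synthesis and of its control were followed in Cre-tagged nuclei of mouse cortex over the first postnatal weeks. The set was fixed as a list of 28 gene symbols, and all 28 were found by symbol among the 25834 genes present in the tables of the 3 ages. All 28 passed the filter on low values, a level of 1 or higher in 4 or more libraries on the scale used below, which 15734 genes passed. They were ordered by role: 7 genes of the mevalonate steps, 11 of the squalene and sterol steps, 5 of control by the sterol regulatory element binding proteins (SREBPs), and 5 of turnover and transport. The RNA came from cortex of male pups of 3 ages, the day of birth (P0), day 14 (P14) and day 28 (P28), with 4 libraries an age. Every pup carried 1 copy of NEX-Cre, a Cre recombinase expressed from a gene of excitatory cortical neurons and their late precursors, and 1 copy of CAG-Sun1/sfGFP, a nuclear membrane tag that Cre switches on. The tag was used to purify nuclei (INTACT), so the polyadenylated RNA read here is nuclear RNA, and no group lacked Cre or the tag. WT stands in the labels of the P0 and P14 libraries but not in those of P28, and P0 replicate 1 and P28 replicate 4 are labelled as merged. The labels call the libraries biological replicates without saying how many pups each holds, so the p-values measure the spread between these libraries.

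Cholesterol is built from acetyl-CoA. The mevalonate steps make isoprenoid units, which are joined into squalene, and squalene is closed into lanosterol and trimmed to cholesterol. When sterol in the endoplasmic reticulum is low, Scap carries SREBPs to the Golgi, where they are cut and released to switch on nearly every gene of the pathway, and Insig proteins hold Scap back when sterol is high. In the brain, cholesterol does not cross from the blood. Neurons make their own early in life and are thought to rely later on cholesterol that astrocytes release on apolipoprotein E particles, and neurons dispose of it by hydroxylation through Cyp46a1.

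The P0 libraries held 13195973 to 16599217 recovered reads, those of P14 25486861 to 33611769 and those of P28 21569262 to 31215435. The lowest count behind any value of these 28 genes was 52 reads, for Idi1 in a P14 library. Levels below are scaled CPM, each library's reads set to a common total and then to a common median ratio over genes, and are compared only within a gene. P14 replicate 2 stood apart, with a mean correlation of 0.951 with the other libraries of its age against 0.976 or more for the other 11 libraries, and it was the lowest P14 library for 13 of the 28 genes and the highest for 13. P0 replicate 4 was the lowest P0 library for 21 of the 28. All 10 markers of excitatory neurons were read at every age, with a summed level of 1617 to 1822 (P0), 1508 to 2406 (P14) and 2622 to 2735 (P28). Of these 10, 5 fell and 1 rose from P0 to P14 (median log2 change -0.57), and 6 fell and 2 rose from P0 to P28 (median -0.40). The 10 markers of inhibitory neurons summed to 406 to 424 (P0), 225 to 362 (P14) and 298 to 390.2 (P28), with 4 falls and 2 rises from P0 to P14.

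From P0 to P14, 15 of the 28 genes fell and 5 rose at an adjusted p under 0.05 (limma, Benjamini-Hochberg over all genes tested), where 34.5% of all genes fell and 34.4% rose. The median change of the 28 was -0.39 on the log2 scale, and that of all genes was 0.01. Among the 18 enzymes of synthesis 12 fell, 1 rose and 5 did not pass, with a median of -0.76. The number that fell was 12 in 24 of 25 alternative analyses as well. On the deposited values without rescaling the tables to each other, where the median of all genes was itself 0.47, 8 of the 18 fell and 5 rose. In that setting 3190 of all 15734 genes fell and 8495 rose. Relative to their P0 means, the median of the 18 enzymes was -0.22 to 0.10 on the log2 scale in the P0 libraries, -0.89 to -0.51 at P14 and -0.94 to -0.74 at P28, so P0 stood apart and the later ages overlapped. The median of the 5 turnover and transport genes was -0.08 to 0.19, 0.27 to 0.53 and 0.82 to 1.07, without overlap. In each P14 and P28 library that median was the value of Nr1h2 or Apoe. Cyp46a1 lay above its P0 mean there, and Abca1 and Stard4 lay below theirs. From P14 to P28, 5 of the 28 fell and 4 rose, where 9.09% of all genes fell and 9.22% rose. Over the whole interval, P0 to P28, 15 fell and 6 rose, where 35.6% of all genes fell and 35.7% rose. The comparisons share libraries, so their counts are not independent of each other.

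**Figure D1:**
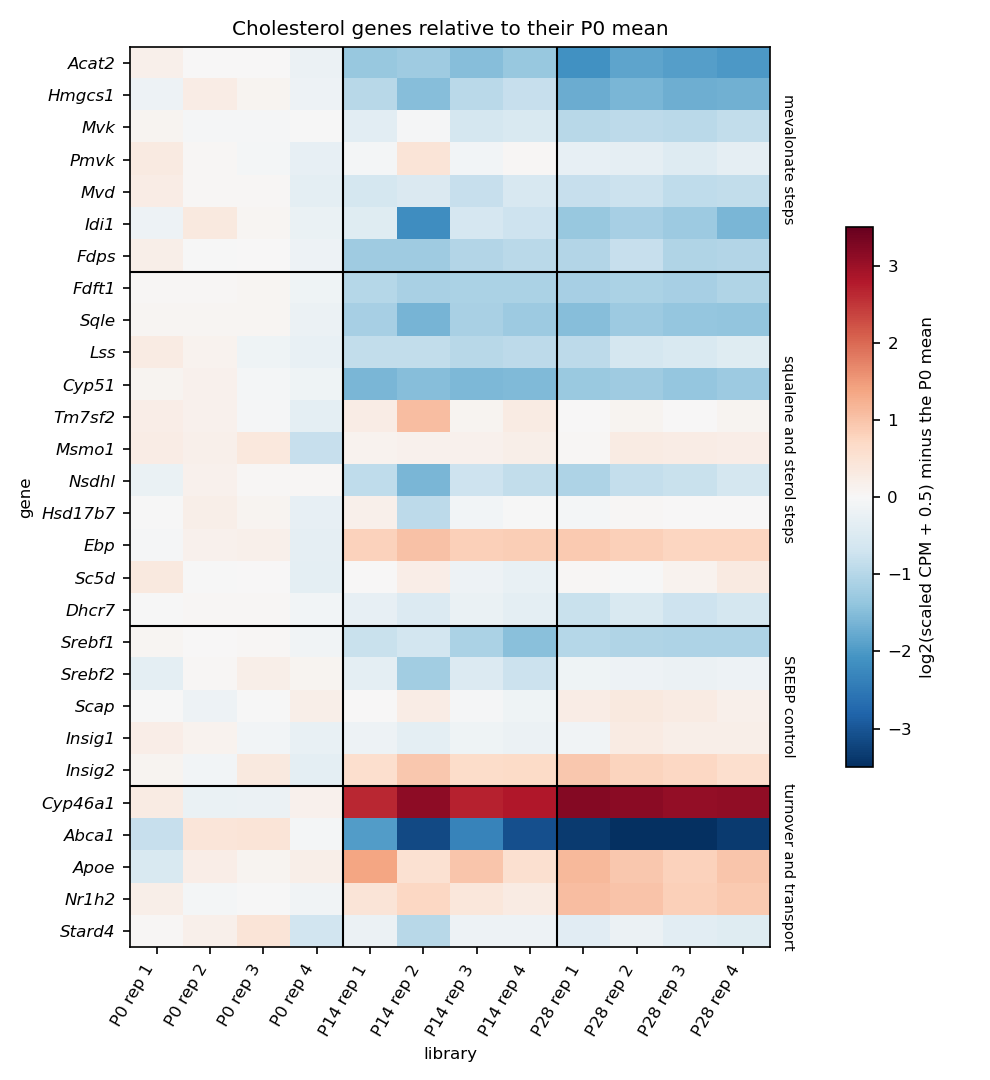
Level of each of the 28 genes (rows, by role) in each of the 12 libraries (columns), as log2(scaled CPM + 0.5) minus the mean of the P0 libraries. Most rows of synthesis enzymes lie below their P0 mean in the P14 and P28 libraries. Of the enzymes, Ebp, Msmo1 and Tm7sf2 lie above it in all 8 of them, as do Cyp46a1, Insig2, Apoe and Nr1h2. Msmo1 and Tm7sf2 did not pass the threshold.

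The stretches before the start sites of 6 genes are shown because these genes changed most or hold a motif that the SREBP pathway is known to use. Sequences were taken from RefSeq (GRCm38.p6), in which 24 of the 28 genes had an entry, and Fdps, Fdft1, Sqle and Stard4 had none. By rule they are the genes with the largest rises (Cyp46a1, Ebp) and the largest falls (Abca1, Cyp51, Acat2) from P0 to P14. Apoe belonged to the rises but its window lies inside the span of the gene and is not printed, and Hmgcs1 was added after its motif had been seen. Each sequence reads 5′ to 3′ on the strand of its gene and holds those of the 250 bases before the listed start that lie outside the gene. Capitals mark CCAAT or its reverse complement ATTGG, the letters bound by nuclear factor Y (NF-Y), and TCACNCCAC, the letters of a sterol regulatory element (SRE). The windows are chr13:119690101-119690350 (plus strand) for Hmgcs1, chr17:12960726-12960975 (minus strand) for Acat2, chr5:4104698-4104947 (minus strand) for Cyp51, chrX:8193513-8193762 (minus strand) for Ebp, chr12:108334066-108334267 (plus strand) for Cyp46a1 and chr4:53159989-53160145 (minus strand) for Abca1.
Hmgcs1: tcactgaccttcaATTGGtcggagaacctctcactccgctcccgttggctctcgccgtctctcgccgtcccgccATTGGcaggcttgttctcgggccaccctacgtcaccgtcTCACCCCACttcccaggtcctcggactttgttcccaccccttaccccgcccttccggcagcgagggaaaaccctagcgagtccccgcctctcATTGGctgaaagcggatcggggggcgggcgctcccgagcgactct
Acat2: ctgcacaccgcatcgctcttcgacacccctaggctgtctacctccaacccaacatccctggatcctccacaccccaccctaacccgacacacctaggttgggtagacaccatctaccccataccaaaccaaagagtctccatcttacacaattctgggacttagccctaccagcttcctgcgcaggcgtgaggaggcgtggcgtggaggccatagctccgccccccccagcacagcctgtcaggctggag
Cyp51: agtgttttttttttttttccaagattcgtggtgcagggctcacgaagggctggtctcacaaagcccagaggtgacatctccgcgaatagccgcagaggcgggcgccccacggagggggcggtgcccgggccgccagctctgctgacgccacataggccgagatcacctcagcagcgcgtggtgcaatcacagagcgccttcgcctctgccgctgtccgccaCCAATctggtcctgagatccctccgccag
Ebp: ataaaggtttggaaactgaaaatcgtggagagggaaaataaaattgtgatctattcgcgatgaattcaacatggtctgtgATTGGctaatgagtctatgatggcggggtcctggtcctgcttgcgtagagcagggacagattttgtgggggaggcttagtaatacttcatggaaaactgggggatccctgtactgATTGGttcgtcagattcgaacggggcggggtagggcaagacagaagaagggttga
Cyp46a1: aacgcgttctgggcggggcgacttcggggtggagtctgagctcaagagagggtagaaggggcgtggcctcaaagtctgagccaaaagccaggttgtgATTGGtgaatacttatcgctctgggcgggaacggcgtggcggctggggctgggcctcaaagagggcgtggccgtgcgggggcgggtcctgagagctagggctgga
Abca1: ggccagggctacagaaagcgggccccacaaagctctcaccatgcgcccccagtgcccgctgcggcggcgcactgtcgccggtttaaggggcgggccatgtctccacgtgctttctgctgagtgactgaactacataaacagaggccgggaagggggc
Hmgcs1 held 3 NF-Y matches and, 137 bases before its start, the only SRE match (TCACCCCAC) among the 24 genes. Searched on both strands, SRE letters stood in the windows of 1.22% of all 27025 genes listed. CCAAT or ATTGG stood in the windows of 14 of the 15 synthesis enzymes with an entry (93.3%) and of 19 of the 24 genes (79.2%), against 37.5% of all genes listed and 40.2% of the genes tested here that had an entry. A gene was counted if any of its listed starts had a match. Counted by start, the shares were 77.8% of 18 and 58.8% of 34, against 33.8% of all starts listed and 34.7% of those of genes tested. In the full windows of 250 bases Acat2 and Abca1 held neither motif, while Ebp, which rose, held 2 NF-Y matches and Cyp51, which fell, held 1. A match describes letters in a window and is not evidence of binding. The SRE and NF-Y matches of Hmgcs1 did not overlap.

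Most genes of the mevalonate steps fell after birth. From P0 to P14, 6 of 7 fell, 0 rose and Pmvk did not pass, with a median change of -0.97. Of all genes, 34.5% fell and 34.4% rose. On deposited values without rescaling 3 of the 7 fell and Pmvk rose, where 3190 of all 15734 genes fell and 8495 rose. Acat2, the cytosolic thiolase that joins the first acetyl-CoA units (chr17:12943042-12960725 in RefSeq GRCm38.p6), read 144, 128, 129.6 and 110.2 scaled CPM in the P0 libraries, 50.4, 53.7, 44.8 and 50.9 at P14 and 29.0, 35.0, 33.4 and 31.6 at P28. No library of one age reached the values of another. The change was -1.35 ± 0.10 (SE) from P0 to P14 (adjusted p = 6.29e-08) and -0.62 ± 0.10 from P14 to P28 (adjusted p = 0.00124). Mouse has a near-identical copy of this gene, Acat3, and how reads were shared between them is not stated in the labels, so the level of Acat2 is uncertain.

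Hmgcs1, HMG-CoA synthase (chr13:119690351-119708260), whose promoter letters include the SRE above, read 655, 884, 781 and 644 scaled CPM at P0. Its P14 libraries read 375, 262, 380.2 and 418, and its P28 libraries 220.3, 240.0, 223 and 227. Again the 3 ages did not overlap, and P14 replicate 2, at 262, was the closest to the P28 range. Hmgcs1 fell by 1.06 ± 0.14 on the log2 scale in the first step (adjusted p = 1.82e-05) and by 0.63 ± 0.14 in the second (adjusted p = 0.00870).

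Mvk and Pmvk, the kinases that phosphorylate mevalonate in turn, are given side by side, and the difference between their changes was not tested. The level of Mvk was 40.6 ± 1.78 (SD, n = 4), 31.0 ± 5.80 and 21.2 ± 0.781 at the successive ages. Its first fall, -0.40 ± 0.12 (adjusted p = 0.00796), left the P0 and P14 libraries overlapping, through P14 replicate 2 at 39.2, and turned to 0.080 on deposited values without rescaling. Its fall from P14 to P28 was -0.52 ± 0.12 (adjusted p = 0.00880). Pmvk changed by 0.08 ± 0.14 from P0 to P14, with a 95% interval of -0.22 to 0.38 (adjusted p = 0.611). Its later change, -0.42 ± 0.14 from P14 to P28, lay at the threshold (adjusted p = 0.0497) and was lost in 15 of 25 alternative analyses, among them those without any 1 of P0 replicates 2 and 3 or any 1 library of P14 or P28 other than P14 replicate 3. Its adjusted p over these alternatives ran from 0.00527 to 0.123.

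Mvd, which decarboxylates the product of Pmvk, read 52.4 ± 9.11 (SD, n = 4) at P0, 33.7 ± 2.89 at P14 and 28.9 ± 1.23 at P28, with a change of -0.62 ± 0.12 in the first step (adjusted p = 5.19e-04). Idi1, the isomerase of the isoprenoid units, was read at 52 to 162 reads a library and had the largest SE of the 28 in the first step. Its change from P0 to P14 was -0.97 ± 0.31 (adjusted p = 0.0136), and -0.57 without P14 replicate 2, which read 1.49 scaled CPM. Fdps, farnesyl diphosphate synthase (chr3:89093588-89101967), read 16.1, 13.7, 13.9 and 12.2 scaled CPM at P0, 5.63, 5.58, 6.59 and 6.94 at P14 and 6.63, 7.71, 6.42 and 6.64 at P28. Its P0 libraries all lay above the others, while P14 and P28 overlapped. Fdps changed by -1.11 ± 0.13 in the first step (adjusted p = 5.05e-06) and by 0.14 ± 0.13 in the second (adjusted p = 0.481). From P14 to P28 the mevalonate genes that fell were Acat2, Hmgcs1, Mvk and Pmvk, 4 of 7, with 0 rising. Of all genes, 9.09% fell and 9.22% rose in that step. By P28 all 7 lay below P0 at the threshold, where 35.6% of all genes did. For Pmvk, at -0.34 ± 0.14 (adjusted p = 0.0405), 12 of 25 alternatives lost the call, including those without P0 replicate 1 or 2, P14 replicate 4 or any 1 P28 library.

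**Figure D2:**
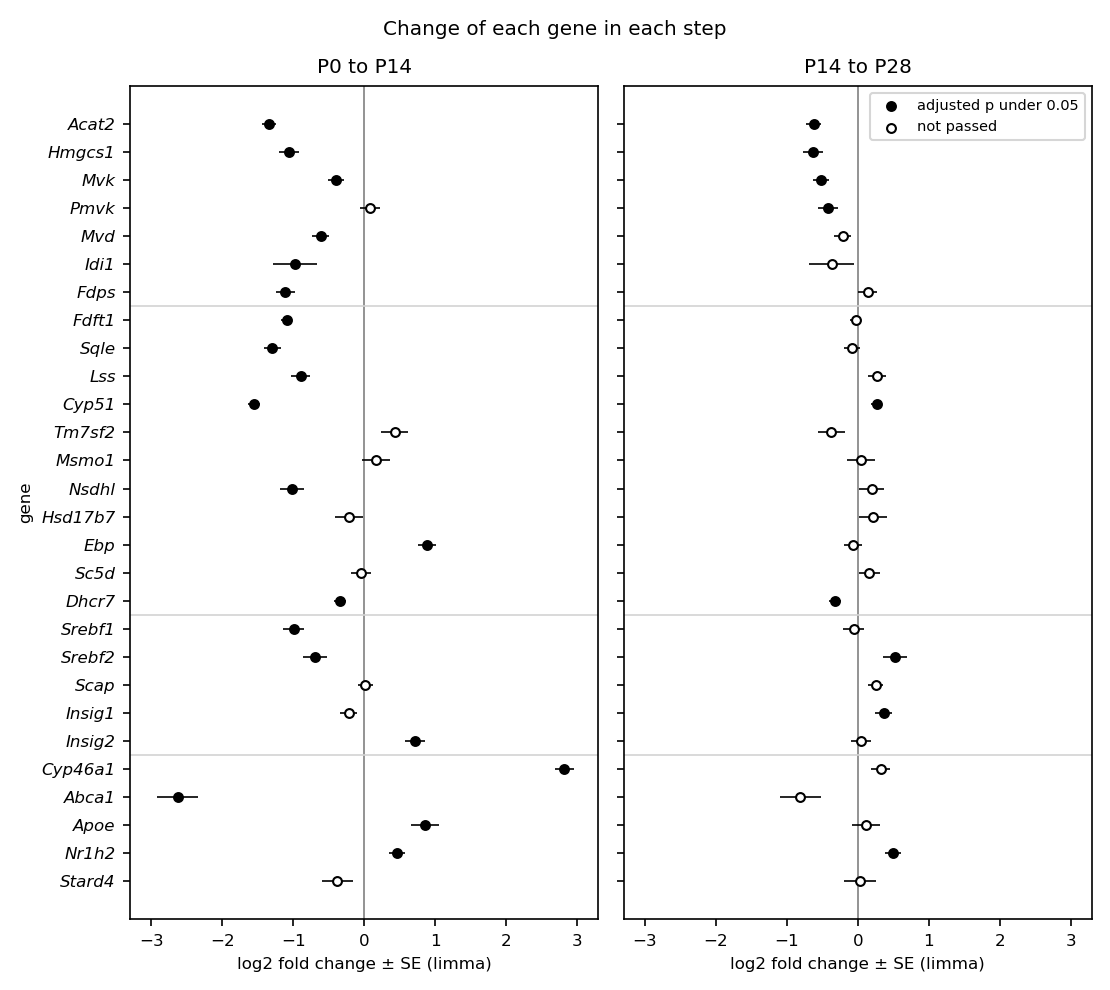
Log2 fold change of each of the 28 genes (rows) from P0 to P14 and from P14 to P28, with the standard error from limma; filled points passed an adjusted p of 0.05 and open points did not. In the first step the changes ran from -2.63 (Abca1) to 2.82 (Cyp46a1), and in the second no gene that passed changed by 1 or more.

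The squalene and sterol steps split. From P0 to P14, 6 of 11 genes fell (Fdft1, Sqle, Lss, Cyp51, Nsdhl and Dhcr7), Ebp rose and 4 did not pass. Their median change was -0.34, and 34.5% of all genes fell and 34.4% rose. On deposited values without rescaling 5 fell and 4 rose, and that median was 0.14. There 3190 of all 15734 genes fell and 8495 rose, with a median of 0.47. Fdft1, squalene synthase (chr14:63145150-63181687), read 214, 213, 215 and 185 scaled CPM at P0, 102, 93.4, 95.2 and 95.2 at P14 and 92.0, 95.9, 91.0 and 99.5 at P28. Its P0 level was above every later library, and P14 and P28 shared a range. The change was -1.09 ± 0.08 (adjusted p = 3.59e-08), then -0.03 ± 0.08 (adjusted p = 0.827). Fdft1 overlaps Ctsb in RefSeq, and the labels do not say whether reads were counted by strand.

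Sqle, the squalene epoxidase (chr15:59315092-59331193), which opens the oxygen-dependent part of the pathway, read 264, 265, 262 and 219 scaled CPM at P0. At P14 it read 113, 80.6, 115 and 105, and at P28 88.4, 105, 98.3 and 96.1. The drop came once, -1.29 ± 0.12 from P0 to P14 (adjusted p = 3.73e-07), and P14 and P28 then overlapped. Lss, which closes the ring to lanosterol, read 137 ± 24.3 (SD, n = 4), 72.5 ± 2.79 and 88.1 ± 12.1 at the 3 ages and changed by -0.90 ± 0.13 in the first step (adjusted p = 3.16e-05).

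Cyp51, the demethylase of lanosterol (chr5:4080674-4104697), had the largest fall of the synthesis enzymes from P0 to P14. The P0 libraries read 245, 253, 218 and 205 scaled CPM, the P14 libraries 75.4, 80.6, 76.1 and 77.9 and the P28 libraries 92.6, 96.5, 89.1 and 94.4. Every P14 library lay below every P28 library, and both lay far below P0. The first step was -1.56 ± 0.08 (adjusted p = 2.26e-09). The second, 0.26 ± 0.08, was a rise that passed (adjusted p = 0.0405) but was lost in 13 of 25 alternatives, with an adjusted p of 0.0105 to 0.589 over them. It was lost without P14 replicate 1, 3 or 4 and without any 1 P28 library.

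Nsdhl, which removes the methyl groups at the next position of the ring (chrX:72918521-72958528), read 47.8, 62.9, 58.8 and 58.1 scaled CPM at P0, 30.2, 18.3, 33.9 and 31.2 at P14 and 26.7, 31.4, 32.9 and 37.0 at P28. P0 lay above both later ages, and the P14 range held P14 replicate 2 at 18.3. Nsdhl changed by -1.02 ± 0.17 in the first step (adjusted p = 1.54e-04) and by 0.20 ± 0.17 in the second (adjusted p = 0.456). Dhcr7, a reductase of the last step, read 77.6 ± 3.37 (SD, n = 4), 61.3 ± 4.50 and 48.9 ± 3.87 at the successive ages. Its first fall, -0.34 ± 0.09 (adjusted p = 0.00329), turned to 0.14 on deposited values without rescaling. Its second, -0.33 ± 0.09 (adjusted p = 0.0204), had an adjusted p of 0.0572, 0.0659 and 0.0645 without P14 replicate 3, P28 replicate 1 and P28 replicate 3.

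Ebp, the sterol isomerase (chrX:8185329-8193512), was the only one of the 18 synthesis enzymes to rise from P0 to P14, under the main settings. Its libraries read 11.02, 12.8, 13.0 and 9.05 scaled CPM at P0, 20.3, 23.6, 20.6 and 21.1 at P14 and 21.9, 20.5, 19.4 and 19.5 at P28. The P0 libraries all lay below the others, and P14 and P28 overlapped. Ebp changed by 0.89 ± 0.12 (adjusted p = 2.36e-05), and the later change was -0.07 ± 0.12 (adjusted p = 0.717).

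Another 4 enzymes did not pass in either step. Msmo1, which oxidizes the methyl groups that Nsdhl then removes, changed by 0.16 ± 0.20 from P0 to P14 (95% interval -0.26 to 0.59, adjusted p = 0.476), with P0 replicate 4 at 44.0 against a P0 mean of 80.9. Sc5d, the desaturase before Dhcr7, changed by -0.04 ± 0.14 (95% interval -0.36 to 0.27, adjusted p = 0.794), and by 0.43 with an adjusted p of 0.0148 on deposited values without rescaling. Hsd17b7, the ketoreductase that works with Nsdhl, changed by -0.21 ± 0.19 (95% interval -0.63 to 0.20, adjusted p = 0.339). The fourth, Tm7sf2, a sterol reductase whose span overlaps Vps51, changed by 0.43 ± 0.19 (adjusted p = 0.0580), and passed as a rise in 7 of 25 alternatives, among them both count tests, edgeR at an adjusted p of 0.0352 and DESeq2 at 0.0340, and leaving out P0 replicate 1 or P14 replicate 3. Without P14 replicate 2 the change of Tm7sf2 was 0.21 (limma adjusted p = 0.124). The intervals of Msmo1, Sc5d and Hsd17b7 allow changes of either sign.

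**Figure D3:**
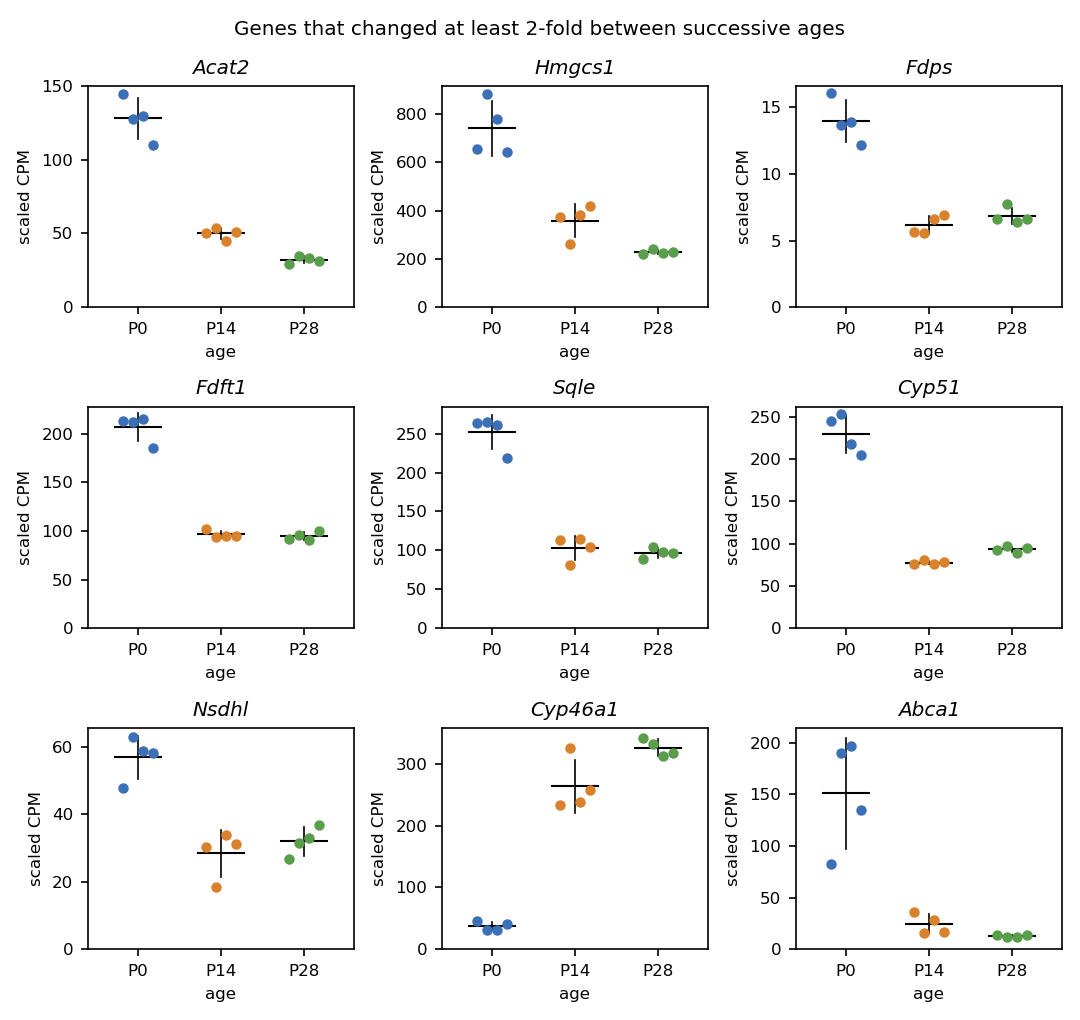
Scaled CPM in each library (points) and mean with SD (bars) at P0, P14 and P28 for the 9 genes that passed and changed by 1 or more on the log2 scale between successive ages. Cyp46a1 is lowest at P0 and the others are highest there. The genes were chosen for a large change, so separated libraries follow largely from that choice.

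Of the 5 genes that control the pathway, 2 fell and 1 rose from P0 to P14, where 34.5% of all genes fell and 34.4% rose. From P0 to P14, Srebf1 and Srebf2 fell, Insig2 rose, and Scap and Insig1 did not pass. Srebf2 encodes the SREBP that chiefly drives cholesterol genes (chr15:82147269-82205379). Its libraries read 289.7, 376, 424 and 392 scaled CPM at P0, 289.9, 158, 265 and 216 at P14 and 332, 322, 320.2 and 325 at P28. The P0 and P14 libraries met at P0 replicate 1 and P14 replicate 1, and the P28 libraries lay above all of P14 and inside the range of P0. Srebf2 changed by -0.70 ± 0.17 in the first step (adjusted p = 0.00221) and by 0.52 ± 0.17 in the second (adjusted p = 0.0462), with -0.18 ± 0.17 between P0 and P28 (adjusted p = 0.358). On deposited values without rescaling the first fall of Srebf2 was -0.21 and lost its call (limma adjusted p = 0.268), and the 5 control genes then had 2 rises and 1 fall. That setting had 8495 rises and 3190 falls among all 15734 genes.

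The later rise of Srebf2 was lost in 17 of 25 alternatives, with an adjusted p of 0.0215 to 0.171 over them, and without P14 replicate 2 it was 0.35. The alternatives that ended it included edgeR (adjusted p = 0.0569) and leaving out P0 replicate 2, 3 or 4, P14 replicate 4 or any 1 P28 library. Srebf1, which chiefly drives fatty acid genes (chr11:60199084-60224186), read 56.1, 54.2, 56.0 and 49.9 scaled CPM at P0, 31.5, 34.6, 24.6 and 19.4 at P14 and 26.6, 25.7, 25.5 and 25.4 at P28. P0 stood clear of both later ages, and P28 lay within the range of P14. The change was -0.99 ± 0.15 (adjusted p = 4.14e-05), then -0.06 ± 0.15 (adjusted p = 0.809). Srebf1 overlaps Rai1 in RefSeq.

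The Insig genes, whose products hold the SREBPs in the endoplasmic reticulum, differed. Insig2 rose from 27.1 ± 5.43 scaled CPM (SD, n = 4) at P0 to 44.2 ± 5.39 at P14, a change of 0.71 ± 0.14 (adjusted p = 5.42e-04), and read 45.7 ± 4.79 at P28. Its P0 libraries lay below all later ones. Insig1, itself a target of the SREBPs, read 71.1 ± 10.4, 60.6 ± 3.36 and 78.4 ± 9.27 at the successive ages. Insig1 changed by -0.22 ± 0.12 in the first step (adjusted p = 0.109, and 0.0296 as a fall without P0 replicate 4) and by 0.36 ± 0.12 in the second (adjusted p = 0.0468).

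That second change of Insig1 was lost in 16 of 25 alternatives, with an adjusted p of 0.0191 to 0.328 over them. Leaving out P0 replicate 2 or 3, any 1 P14 library or P28 replicate 2, 3 or 4 ended it. Scap, the escort of the SREBPs, changed by 0.02 ± 0.10 from P0 to P14 (adjusted p = 0.895) and by 0.27 ± 0.10 from P0 to P28 (adjusted p = 0.0329). The latter call was lost in 8 of 25 alternatives, including those without P0 replicate 1, 2 or 3 or P28 replicate 1, 2 or 3.

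**Figure D4:**
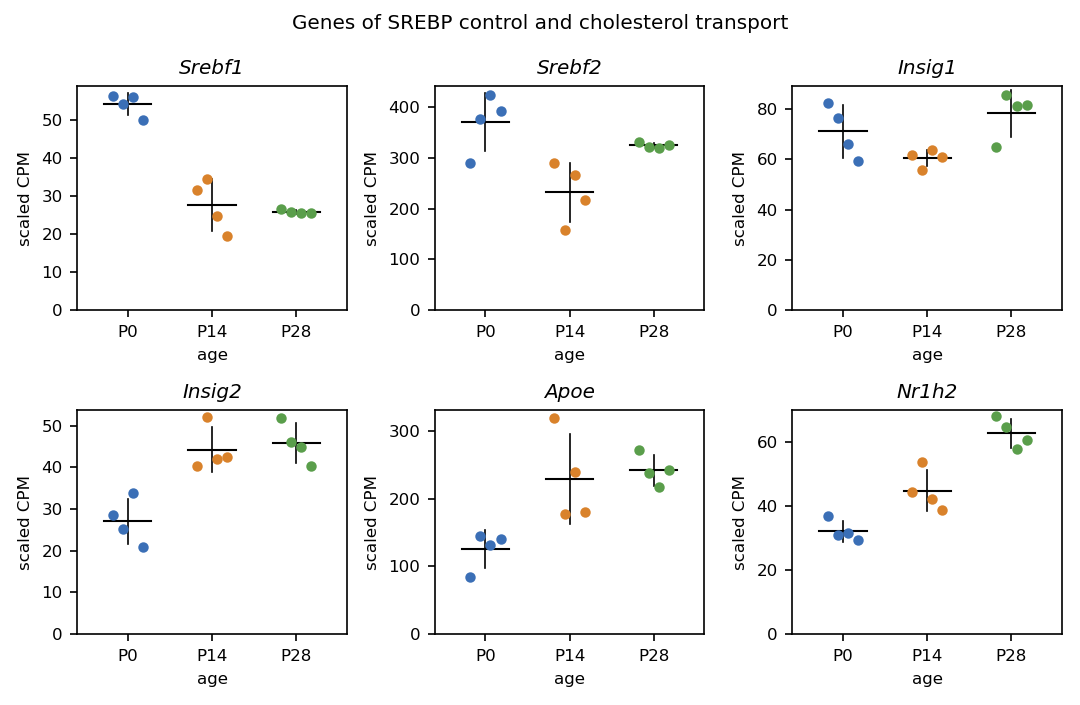
Scaled CPM in each library (points) and mean with SD (bars) at P0, P14 and P28 for 4 genes of SREBP control and for Apoe and Nr1h2. Srebf1 and Insig2 show 1 step between P0 and P14, Srebf2 is lowest at P14, and Nr1h2 is higher at each age than at the one before.

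Turnover and transport genes held the largest changes in both directions. From P0 to P14, Cyp46a1, Apoe and Nr1h2 rose, Abca1 fell and Stard4 did not pass. Of all genes, 34.4% rose and 34.5% fell. Cyp46a1, the neuronal hydroxylase whose product leaves the brain (chr12:108334268-108362234), read 45.3, 31.3, 31.6 and 40.7 scaled CPM at P0. It read 233, 326, 239 and 258 at P14 and 343, 333, 313 and 319 at P28. All 8 later libraries lay far above P0, and P14 replicate 2 lay within the P28 range. The fitted change was 2.82 ± 0.13 (adjusted p = 9.85e-10), 7.04-fold, in the first step. In the second it was 0.32 ± 0.13 (adjusted p = 0.112), and without P14 replicate 2 it was 0.42 (adjusted p = 0.0126).

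Abca1, which exports cholesterol to apolipoproteins (chr4:53030789-53159988), ran the other way. Its libraries read 82.1, 190.2, 197 and 135 scaled CPM at P0, 36.1, 15.7, 27.7 and 16.6 at P14 and 13.5, 11.7, 12.04 and 13.6 at P28. No 2 ages overlapped, and the P0 libraries spread widely. Abca1 changed by -2.63 ± 0.29 in the first step (adjusted p = 2.62e-06) and by -0.81 ± 0.29 in the second (adjusted p = 0.0655). The second change passed as a fall in 5 of 25 alternatives, among them edgeR (adjusted p = 0.0408), DESeq2 (adjusted p = 0.0107) and the analyses without P0 replicate 1 (adjusted p = 0.0314) or P14 replicate 2 (adjusted p = 0.0204).

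Markers of vessels moved with Abca1. All 10 fell from P0 to P14, where 34.5% of all genes fell. None was at 0 reads at any age, and their summed level was 1606 to 2862 (P0), 325 to 478 (P14) and 285 to 350.3 (P28). Over the P0 libraries the sums were 1606, 2780, 2862 and 1866 for replicates 1 to 4, in the same order of size as Abca1. The orders also matched at P14 but not at P28, where the vessel sum was highest in replicate 1, at 350.3, and Abca1 in replicate 4, at 13.6. All 8 markers of progenitors fell between P0 and P28, where 35.6% of all genes did, from sums of 388 to 554 at P0 to 27.4 to 49.9 at P28. The part of these cells in the change of Abca1 was not tested. In bulk RNA of this kind, fewer cells of a type and less RNA per cell cannot be told apart.

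Apoe, the main apolipoprotein of brain lipoproteins and chiefly a product of astrocytes (chr7:19696244-19701310), read 84.4, 145, 131 and 141 scaled CPM at P0, 319, 178, 239 and 179 at P14 and 272, 237, 217 and 241 at P28. P0 lay below both later ages, and the P14 libraries spanned the P28 range. It changed by 0.85 ± 0.20 (adjusted p = 0.00171) and then by 0.12 ± 0.20 (adjusted p = 0.705). Of 10 astrocyte markers, 6 rose and 1 fell from P0 to P14, with none at 0 reads and sums of 486 to 677 (P0), 1391 to 2464 (P14) and 1372 to 1476 (P28). From P14 to P28, 4 of them fell and 0 rose (median log2 change -0.69), where 9.09% of all genes fell and 9.22% rose. Between P0 and P28, 4 rose and 3 fell (median -0.04), where 35.7% of all genes rose and 35.6% fell. Over the P14 libraries the sums were 2464, 1391, 2184 and 1781 for replicates 1 to 4, highest in replicate 1 and then replicate 3, as for Apoe. That order was not particular to astrocytes. It also held for the P14 sums of microglia (127, 68.1, 124 and 112) and vessels (478, 325, 428 and 393), and of inhibitory neurons and oligodendrocyte precursors. The sums of excitatory neurons, oligodendrocytes and progenitors had other orders. Microglia markers, 9 of 10 of which rose, summed to 39.1 to 60.9 (P0), 68.1 to 127 (P14) and 100.5 to 117 (P28). Oligodendrocytes, which also make much cholesterol, were represented by 10 markers, all of which rose, with sums of 66.7 to 80.6 (P0), 527 to 1314 (P14) and 1209 to 1980 (P28), and Opalin was at 0 reads in every P0 library. Over the same step 12 of the 18 synthesis enzymes fell. Of 8 progenitor markers 7 fell as well, with sums of 388 to 554 scaled CPM at P0 against 44.3 to 106 at P14, as did the 10 vessel markers given above. Over the P0 libraries the progenitor sum was lowest in replicate 4, at 388, the library that was lowest for 21 of the 28 genes. The 8 markers of oligodendrocyte precursors summed to 552 to 650.4 (P0), 184 to 271 (P14) and 137 to 197 (P28). From P0 to P14, 3 of the 8 rose and 3 fell, where 34.4% of all genes rose and 34.5% fell. The part of these cells in the rise of Apoe and in the levels of the synthesis enzymes was not tested.

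**Figure D5:**
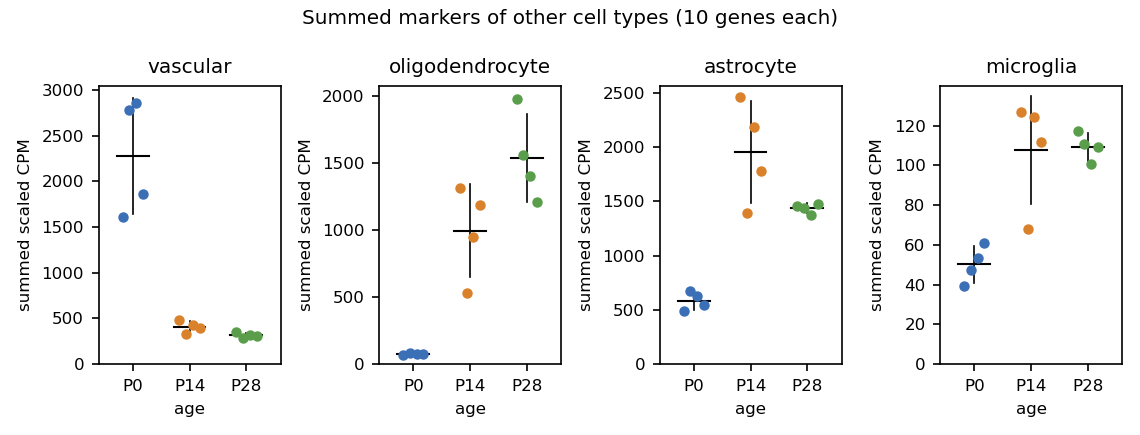
Summed scaled CPM of the markers of 4 other cell types (10 genes each) in each library (points), with mean and SD (bars), at P0, P14 and P28. The vessel sum is highest at P0, while the oligodendrocyte, astrocyte and microglia sums are higher at P14 and P28 than at P0. Of the 10 astrocyte markers, 4 rose and 3 fell from P0 to P28, where 35.7% of all genes rose and 35.6% fell.

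Nr1h2, the liver X receptor beta that senses oxysterols and switches on efflux genes such as Abca1 (chr7:44549616-44553968), rose in both steps. It read 32.1 ± 3.26 scaled CPM (SD, n = 4) at P0, 44.7 ± 6.33 at P14 and 62.6 ± 4.53 at P28, and no 2 ages overlapped. The changes were 0.46 ± 0.11 (adjusted p = 0.00221) and 0.49 ± 0.11 (adjusted p = 0.00963). It was the only 1 of the 28 to rise in both steps, under the main settings. Stard4, which carries sterol between membranes, changed by -0.38 ± 0.22 from P0 to P14 (adjusted p = 0.141). Without P0 replicate 4, at 25.9, Stard4 passed as a fall, at -0.62 (adjusted p = 0.0105).

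The step from P14 to P28 was the smaller and the less settled. Acat2, Hmgcs1, Mvk, Pmvk and Dhcr7 fell and Cyp51, Srebf2, Insig1 and Nr1h2 rose, 9 in all, where 9.09% of all genes fell and 9.22% rose. The count of changed genes was 5 without P14 replicate 4, P28 replicate 1, P28 replicate 2 or P28 replicate 4, and 4 without P28 replicate 3. Calls over all genes dropped as well, from 1450 rises and 1431 falls with all libraries. They became 876 to 914 rises and 899 to 1018 falls without any 1 P28 library, and 1046 and 1045 without P14 replicate 4. The rises numbered 1 without P14 replicate 4 or P28 replicate 2, 3 or 4, and 2 without P0 replicate 2 or 3, P14 replicate 1 or 3, or P28 replicate 1. The falls numbered 3 without P28 replicate 1 or 3. Acat2, Hmgcs1 and Mvk passed in all 25 alternatives, and Nr1h2 in 24.

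Genes around the 28 were read from lists of the same pathway. Of all genes, 34.5% fell and 34.4% rose from P0 to P14, and 9.09% fell and 9.22% rose from P14 to P28. Of 7 further genes of synthesis, 4 fell and 2 rose from P0 to P14. Acat1, the mitochondrial thiolase, changed by -0.48 ± 0.07 (adjusted p = 6.81e-05), which came to 0.00 on deposited values without rescaling, and by -0.44 ± 0.07 from P14 to P28 (adjusted p = 0.00162). From P14 to P28 the list had 2 falls, Acat1 and Nus1, the latter named after its values were seen. Of 7 further genes of SREBP control, 5 fell and 1 rose in the first step and none passed in the second. Mbtps2, a protease that releases the SREBPs, changed by -1.42 ± 0.17 (adjusted p = 8.44e-06). The paired Erlin genes, whose proteins bind SREBP complexes in the endoplasmic reticulum, went opposite ways, Erlin1 by 0.96 ± 0.10 (adjusted p = 2.36e-06) and Erlin2 by -1.77 ± 0.17 (adjusted p = 6.44e-07).

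Of 13 genes of uptake and traffic, 6 fell and 3 rose from P0 to P14, where 34.5% of all genes fell and 34.4% rose. Lrp8, a receptor for apolipoprotein E and reelin, fell from 489.9 ± 33.1 scaled CPM (SD, n = 4) to 164 ± 4.80, a change of -1.58 ± 0.08 (adjusted p = 1.81e-09). Npc2, the lysosomal cholesterol carrier, changed by -1.31 ± 0.09 (adjusted p = 2.44e-08). Mylip, the ligase that marks lipoprotein receptors for degradation, changed by 1.45 ± 0.16 (adjusted p = 2.68e-06). From P14 to P28, Lrp1 and Stard3 of this list rose, both named after their values were seen. Lrp1, another receptor for apolipoprotein E, read 720.1 ± 104, 347 ± 87.9 and 596 ± 81.4 (SD, n = 4) at the 3 ages and changed by -1.08 ± 0.18 and then 0.81 ± 0.18 (adjusted p = 0.00828 for the latter). Stard3, which tethers late endosomes to the endoplasmic reticulum, changed by 0.41 ± 0.09 from P14 to P28 (adjusted p = 0.00799).

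Of 13 tested genes of efflux and turnover (of 14 listed), 6 rose and 3 fell from P0 to P14, and 4 rose and none fell from P14 to P28. Of all genes, 34.4% rose and 34.5% fell in the first step, and 9.22% rose and 9.09% fell in the second. Abca7, an ATP-driven lipid transporter, changed by 1.67 ± 0.18 in the first step (adjusted p = 2.22e-06). The apolipoproteins Clu and Apod went opposite ways, by 1.55 ± 0.19 (adjusted p = 7.88e-06) and -2.06 ± 0.28 (adjusted p = 1.97e-05). The rises of the second step, named after their values were seen, were Abcg1, Abca2, Rxra and Apod. Abcg1, an exporter of cholesterol to lipoproteins, read 42.5, 16.9, 40.7 and 34.9 scaled CPM at P14 and 68.1, 64.7, 68.7 and 62.1 at P28, a change of 1.04 ± 0.22 (adjusted p = 0.00699). All 4 of its P28 libraries lay above P14. Abca1 lay lower at P28 than at P14 in all 4, but that change did not pass (limma adjusted p = 0.0655). The difference between the changes of Abcg1 and Abca1 was not tested. Rxra, a partner of the liver X receptors, changed by 0.88 ± 0.19 (adjusted p = 0.00689). Without P28 replicate 1 the rise of Abca2 had an adjusted p of 0.0593, and that of Apod an adjusted p of 0.0855, of 0.0532 without P14 replicate 4 and of 0.0548 without P28 replicate 2.

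Fatty acid genes, the main targets of Srebf1, fell in 8 and rose in 3 of 12 from P0 to P14, with a median change of -0.62. Of all genes, 34.5% fell and 34.4% rose in that step. Fasn, fatty acid synthase, read 981 ± 137 scaled CPM (SD, n = 4) at P0, 193 ± 68.5 at P14 and 245 ± 4.48 at P28, a first change of -2.41 ± 0.22 (adjusted p = 5.04e-07). Acaca, which makes the malonyl-CoA that Fasn uses, changed by -1.50 ± 0.11 (adjusted p = 3.42e-08). Acss2, which makes acetyl-CoA from acetate, rose by 1.21 ± 0.09 (adjusted p = 3.65e-08). From P14 to P28, Elovl5 and Me1 fell and none rose, and both are named after their values were seen.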

How the data were processed

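Polyadenylated nuclear RNA of 12 libraries, 4 each at P0, P14 and P28, was read from 1 table of normalized counts per age. The deposited unit is signal: per the submitters' processing notes the authors used DESeq2 and build mm10, without versions, and the tables were normalized separately. Dividing by each column's smallest step gave whole reads within 0.05 for 100% of values. No label or header used here names the aligner, the annotation or the counted strand. Of the columns, 0 lacked a sample.

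Each column was divided by its total over 25834 shared genes and then by a median-of-ratios factor over the 12 libraries (scaled CPM). The filter kept 15734 genes that reached 1 scaled CPM in 4 or more libraries, and log2(scaled CPM + 0.5) was fitted with limma (trend, robust, age with 3 levels, all libraries), two-sided, with Benjamini-Hochberg adjustment over all genes and a threshold of 0.05. Fold changes on this scale understate the change of low genes. Intervals are 95%. The code was tested on simulated data. No pair of same-age libraries agreed within sampling noise (chi-square per degree of freedom of 6.02 or more).

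The 28 genes, the other lists and the markers were chosen with earlier results of these data known. All 28 are named. Library values are given for genes that passed with a change of 1 or more in a step and for some others, and up to 3 genes of each other list were named by smallest adjusted p from P0 to P14, except that a few genes of these lists are not reported here. Gene positions and promoters are RefSeq's on GRCm38.p6, matched by symbol. Alternatives covered the pseudocount (0.1 and 2), the filter, the scaling, limma on the 8 libraries of a comparison, edgeR and DESeq2 on recovered reads, a replicate block, and fits without each library in turn or without both merged ones. Software: limma 3.58.1, edgeR 4.0.16 and DESeq2 1.42.0 under R 4.3.3, and matplotlib 3.10.9 under Python 3.11.15.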

Additional observations from a re-analysis of the deposited data

Results flagged for a closer look

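Of 84 sets of 4 libraries (28 genes at 3 ages), 5 held a library whose gap to its nearest neighbour, as a share of the whole range, exceeded Dixon's 95% critical value, and chance alone gives about 1 in 20, or 4.2. P0 replicate 4 was low for Fdft1, at 185 scaled CPM against 213 to 215.5 in the other 3 libraries, and for Sqle, at 219 against 262 to 265. P14 replicate 2 was high for Tm7sf2, at 65.7 against 32.6 to 37.4, and low for Stard4, at 21.2 against 35.9 to 37.1. P28 replicate 2 was high for Fdps, at 7.71 against 6.42 to 6.64.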

How the results depend on the processing

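Across 84 gene results under 25 alternatives each, 1980 values kept their side of the threshold and, where called, their direction, 90 lost the call, 27 gained one, and 3 changed sign with a call in the main analysis or the alternative. Among the 1980, 45 values called in neither changed sign, 11 of them on deposited values without rescaling and 34 under other alternatives. The 3 with a call came from deposited values without rescaling, where the median of all genes moved to 0.47 from P0 to P14, -0.20 from P14 to P28 and 0.27 from P0 to P28: Mvk (0.080), Sc5d (0.43) and Dhcr7 (0.14) from P0 to P14. Among the other genes named, Acat1 (0.0035), Nus1 (0.36), Stard3 (0.45) and Rxra (0.0066) changed sign there in that step, again below the median of all genes. In that setting 10 of the 28 genes rose from P0 to P14, where 8495 of all 15734 genes rose and 3190 fell. The counts of genes that changed or fell from P0 to P14, and all counts from P0 to P28, stayed within 1.5 times under every alternative. From P14 to P28 the 9 changed genes became 5 with no filter, 4 with the replicate block and 4 without both merged libraries. Over all genes, the 1450 rises and 1431 falls became 1317 and 1268 with no filter. They became 1194 and 1163 with the replicate block, and 848 and 887 without both merged libraries. The 4 rises became 1 with no filter, 1 with library totals, 2 with the upper quartile, 1 with quantile normalization, 0 on deposited values, 1 with the replicate block and 1 without both merged libraries. The 5 falls became 9 on deposited values, 3 with the replicate block and 3 without both merged libraries. On deposited values 3858 of all 15734 genes fell in that step and 672 rose. Leaving out 1 library at a time gave 4 to 11 changed, 1 to 5 rises and 3 to 6 falls. The cause was not tested. The replicate numbers share no stated animal: correlations of same-numbered deviations ran from -0.51 to 0.36, and 3 of 12 libraries correlated best with their own number. The lowest count behind a value was 52 reads, for Idi1 at P14.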
